A study of Mus musculus with 8 samples.

Results

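Lysosome-related organelles are compartments that share proteins with lysosomes but store or release special cargo, such as melanosomes, platelet dense granules and the lytic granules of cytotoxic cells. Small GTPases of the Rab family mark these membranes, motor proteins move them, and tethering and priming proteins prepare them to fuse with the cell surface. In myeloid cells the same machinery takes part in the release of azurophil granules, and defects in several of the genes cause pigment dilution together with immune or bleeding disorders. The genes described here are Mreg, Rab38, Rab32, Rab27a, Rab7, Gpnmb, Mitf, Myo5a, Lyst and Unc13d, which are 10 of the 17097 genes with a probe set on these arrays. They were named as a list, and each was read from the probe set (a group of short probes for 1 transcript) that carries its symbol alone and had the highest mean over the 8 arrays. The list was drawn up with the difference between the groups in view, so its members' values are a description and carry no test.

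The arrays hold total RNA of mouse acute myeloid leukaemia (AML) cell lines, 4 labelled Trib1 hi, said to express Hoxa9 with Trib1, and 4 labelled Trib1 null, said to express Hoxa9 alone; they are called hi-labelled and null-labelled arrays here. Hoxa9 is a homeobox protein and myeloid oncogene, and Trib1 is a pseudokinase that has C/EBP alpha, a factor of granulocyte maturation, degraded. The leukaemia arose in mice with both copies of Trib1 knocked out, a background that both groups share, and both were grown untreated in IMDM that held the cytokine IL-3 at 5 ng/ml and 10% serum from fetal calves. How Trib1 and Hoxa9 were introduced, how many lines each group holds and whether its arrays are independent cultures is not stated in the sources used here. The p-values below therefore cover only array-to-array spread, possibly technical.

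Values are deposited intensities in arbitrary units, scaled so that the mean of each array trimmed by 2% was 500.1 to 500.2. The arrays differed at low signal, where the median ran from 3.71 to 68.3 and the 75th percentile from 15.5 to 422. Both were highest on Trib1 hi 3. On Trib1 hi 1, 2 and 4 the 75th percentile was 17.5, 15.5 and 97.3, below the 223 to 385 of the null-labelled arrays. Low signals thus differed between the groups as well as on Trib1 hi 3. The part of this in the decreases of dim genes and in the counts of lower genes below was not tested. The brighter Trib1 probe set read 7.13, 7.13, 122 and 5.92 on the hi-labelled arrays and 304, 223, 212 and 206 on the null-labelled arrays, against the labels but within that low range, and where it lies relative to the deleted or introduced sequence was not given in the sources used here. A dimmer Trib1 probe set, at 9.05 ± 12.6 and 6.98 ± 6.54, overlapped. Hoxa9, which both groups are labelled to express, read 107 ± 189 (SD, n = 4) and 1024 ± 43.5, and Xist, the RNA of the inactive X chromosome, 29.7 ± 48.0 and 8907 ± 684, so a difference between cell lines cannot be told apart from one due to Trib1. All directions below are those of the labels and would all turn if the groups had been exchanged, which was not tested. Signals under 500 were set to 500 for folds, and a fold is written "at least" where the dimmer group lay under 500 on some or all arrays. The added bacterial control dap had group means of 1153 to 2963. It was lower in the hi-labelled arrays by 0.50 to 0.68 on the log2 scale, without overlap. Decreases of that size or smaller cannot be told apart from the one in this control. Among the decreases named below, this holds by log2 difference for Rab27a, Sytl1, Chm, Ccz1, Hps3, Wdfy4, Bloc1s1, Stx4a, Vamp8, Stxbp3 and Cd68. As folds, dap was 1.41 to 1.6 lower. Vipas39, Tgfbrap1, Mon1b, Plekhm1, Spi1 and Il3ra have only an "at least" fold within or under that range, so they are not shown to exceed it. Bloc1s3, Hps1, Mon1a, Nbeal2, Dctn1 and Tfe3 have no fold to set beside it. The probe sets of the other added controls (bioC, bioD and cre) that lay over 500 on all arrays differed by -0.34 to 0.20, with overlap.

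Mreg and Rab38 were higher in the hi-labelled arrays, whereas Rab32, Rab27a, Gpnmb, Mitf, Myo5a and Lyst were lower, in each case without overlap between the groups. Rab7 and Unc13d overlapped. So 8 of the 10 genes did not overlap, beside 29.3% of the 12250 genes tested, of which 13.5% lay higher and 15.8% lower; with members chosen from this contrast, nothing is read from that count. All 10 genes passed the filter on dim genes, a mean log2 intensity over 3.01. Their median log2 difference was -0.93, against 0.04 for all genes tested, and with chosen members nothing is read from that either.

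**Figure D1:**
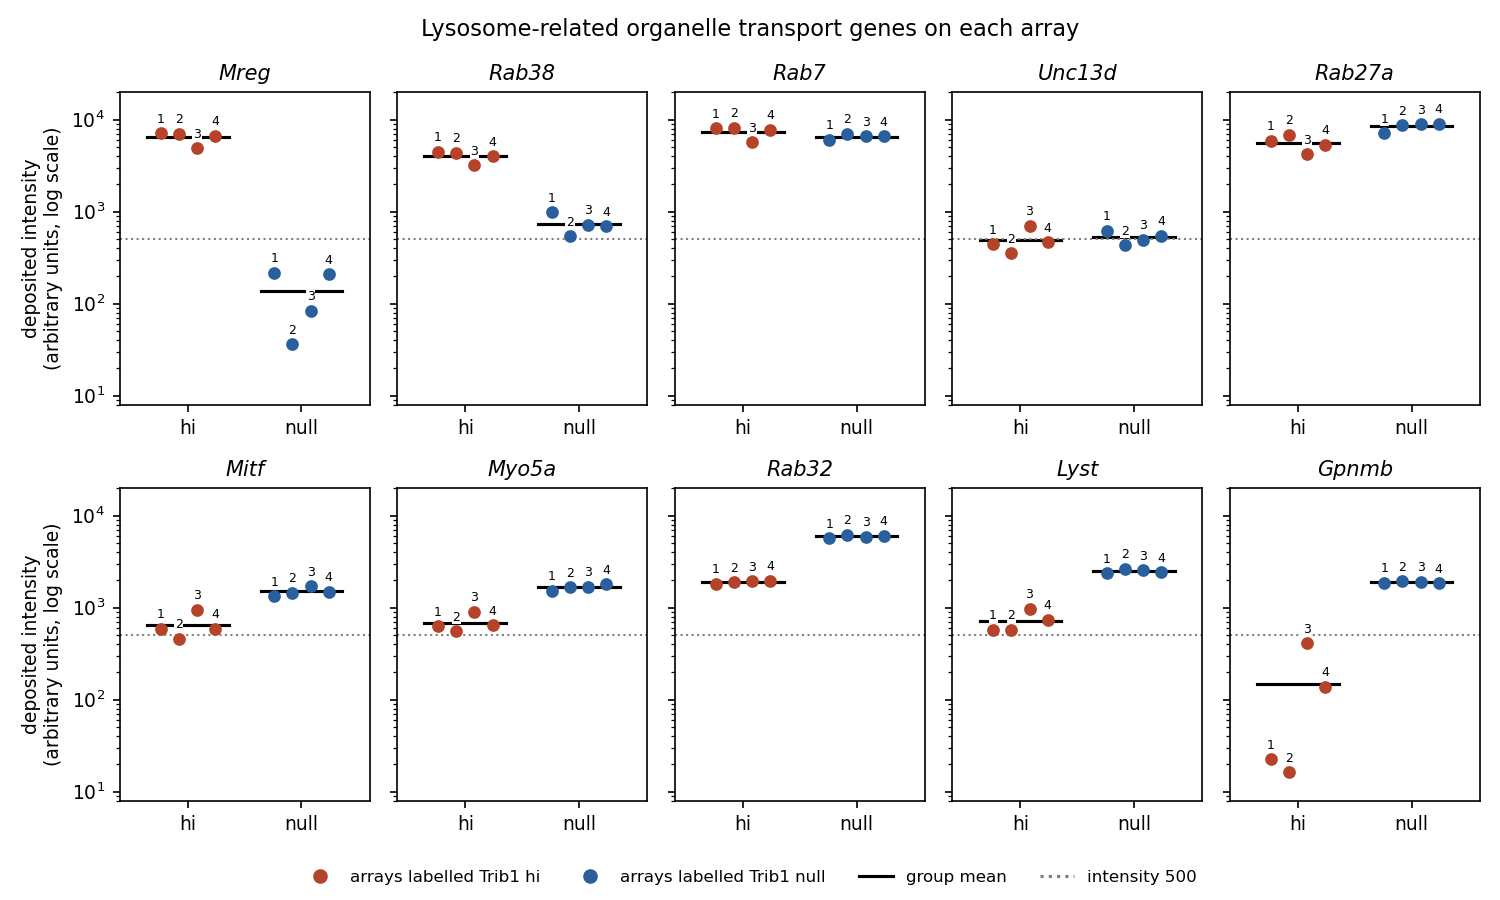
Deposited intensity (arbitrary units, log axis) of the 10 genes on each array, with hi-labelled arrays in red and null-labelled arrays in blue, the array number above each point, a bar at the group mean and a dotted line at 500. Mreg stands at 4883 to 7121 against 36.5 to 218, Rab32 at 1818 to 1960.2 against 5699 to 6232, and the groups overlap for Rab7 and Unc13d.

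Promoter windows from RefSeq on GRCm38.p6 are shown for the member with the largest increase, Mreg, the one with the most negative log2 difference, Gpnmb, and Rab32, one of a pair of related GTPases that differed in opposite directions. Each runs 5′ to 3′ on the strand of its gene from 250 bases before the annotated start to 30 bases after it, in lower case with a motif match in capitals.
Mreg, chr1:72212285-72212564, minus strand: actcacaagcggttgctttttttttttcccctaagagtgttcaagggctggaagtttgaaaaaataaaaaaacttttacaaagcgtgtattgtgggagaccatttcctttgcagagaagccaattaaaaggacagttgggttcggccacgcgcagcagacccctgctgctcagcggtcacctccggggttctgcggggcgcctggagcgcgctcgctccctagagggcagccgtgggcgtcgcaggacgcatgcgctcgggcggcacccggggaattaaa
Gpnmb, chr6:49036268-49036547, plus strand: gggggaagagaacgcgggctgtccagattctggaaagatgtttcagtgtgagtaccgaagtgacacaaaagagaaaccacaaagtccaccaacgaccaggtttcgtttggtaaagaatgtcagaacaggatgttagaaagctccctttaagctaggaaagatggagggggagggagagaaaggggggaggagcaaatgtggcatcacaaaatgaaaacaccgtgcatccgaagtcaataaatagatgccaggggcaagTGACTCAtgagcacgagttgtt
Rab32, chr10:10558178-10558457, minus strand: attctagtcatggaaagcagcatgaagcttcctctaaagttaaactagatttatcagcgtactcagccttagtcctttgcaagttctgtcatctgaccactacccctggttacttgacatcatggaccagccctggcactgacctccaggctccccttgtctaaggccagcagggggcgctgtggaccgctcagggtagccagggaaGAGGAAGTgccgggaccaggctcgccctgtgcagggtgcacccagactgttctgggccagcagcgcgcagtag
Windows were found for 8 of the 10 genes, 13 windows in all, and not for Rab38 and Unc13d. On both strands of the full windows, which reach 50 bases past the start, 6 motifs chosen after these windows had been read were searched. The AP-1 motif TGACTCA, bound by Fos and Jun proteins, matched Gpnmb at bases 259 to 265 of its window and is held by 5.2% of 32851 such windows of all genes. GAGGAAGT, a motif of ETS factors such as PU.1, matched Rab32 at bases 208 to 215 and is held by 3.2%. The cyclic AMP response motif TGACGTCA matched 1 of 3 windows of Mitf (1.79% of all windows), the C/EBP motif TTGCNNAA matched the other 2 (10.8%), and the E-box CACGTG matched 1 window of Rab27a (7.15%). The E-box CATGTG (14.2%) matched none of the 13, and Mreg, Rab7, Myo5a and Lyst held none of the 6. No match overlapped another, and a match describes letters only.

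The Rab GTPases of the list differed in opposite directions. Rab38, which carries pigment enzymes to melanosomes and is mutated in chocolate mice, read 4481, 4377, 3212 and 4015 on the hi-labelled arrays and 982, 539.9, 724 and 698 on the null-labelled arrays. All hi-labelled arrays lay above all others, and the means of 4021 ± 575 and 736 ± 183 (SD, n = 4) differed 5.46-fold. Rab32, its close relative with overlapping function in the same transport step, read 1818, 1890.5, 1944 and 1960.2 against 5699, 6232, 5942 and 6031. Here all hi-labelled arrays lay lower, 3.14-fold by means of 1903 ± 64 and 5976 ± 221. Its SD among the hi-labelled arrays, 3.36% of the mean, was the smallest of the 10 genes there. On the log2 scale Rab38 differed by 2.47 ± 0.13 (SE) and Rab32 by -1.65 ± 0.09, and leaving out any 1 array kept them at 2.33 to 2.61 and -1.67 to -1.63.

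Rab27a, which recruits motor and docking proteins to granules and is lost in Griscelli syndrome and in ashen mice, was measured by 4 probe sets. The brightest read 5926, 6866, 4227 and 5342 against 7179, 8671, 8917 and 9051. The groups did not overlap, but the gap was small, since Trib1 hi 2 stood at 6866 and Trib1 null 1 at 7179. The means, 5590.3 ± 1105 and 8454 ± 865, differed 1.51-fold, a log2 difference of -0.61 ± 0.12 (SE), between the 0.50 and 0.68 by which the probe sets of the control dap were lower; without Trib1 hi 2 it was -0.72. A second probe set read 261 ± 251 against 832 ± 105, at least 1.56-fold lower without overlap. The third read 130.4 ± 213 against 559 ± 59.3. All hi-labelled arrays (449 or less) and Trib1 null 4 (491) lay under 500 there, so no fold is given and no order is read. The fourth stayed at 41.0 or less on all arrays, and averaging all 4 gave -1.41.

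Rab7, which directs late endosomes and lysosomes and the early steps of melanosome traffic, read 8093, 8149, 5707 and 7821 against 6069, 7024, 6579.9 and 6569. The groups overlapped through Trib1 hi 3, the lowest of the 8 arrays. The means of 7443 ± 1166 and 6560.5 ± 390.0 differed 1.13-fold, and its other probe set gave the same ratio at about the same log2 difference (0.18 against 0.17). After quantile normalization the difference was 0.03.

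Mreg, melanoregulin, a small membrane-bound protein that links melanosomes to transport towards the cell centre and was found as a suppressor of the dilute coat colour, differed most. It read 7121, 7046, 4883 and 6695 on the hi-labelled arrays and 218, 36.5, 83.7 and 208 on the null-labelled arrays. The former lay far above 500 and all of the latter below it, so the fold, from 6436 ± 1052 and 137 ± 90.5, is at least 12.9. With signals under 500 set to 500, Mreg ranked 4 among increases over all 12250 genes and Rab38 ranked 23. Both were chosen from this contrast, so nothing is read from these ranks. The promoter window printed above is the first listed of 2 overlapping ones for Mreg.

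Myo5a, the myosin that ties granules to actin and is mutated in dilute mice, was lower on all of its 3 probe sets. The brightest read 633, 555, 907 and 642 against 1529, 1678, 1685 and 1790.0, which is 2.44-fold lower (684 ± 153 and 1671 ± 107). The other probe sets were at least 1.83-fold and 1.81-fold lower, also without overlap.

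Lyst, a very large protein of the BEACH domain family that controls the size of lysosomes and granules and is mutated in Chediak-Higashi syndrome and beige mice, read 578, 575, 980.0 and 740.1 against 2387, 2659, 2554 and 2437. Even the highest hi-labelled array lay far below the lowest of the others. The means of 718 ± 191 and 2509 ± 122 differed 3.49-fold, with Trib1 hi 3 highest in its group. The other 2 Lyst probe sets did not exceed 86.9 on any array and overlapped, so that averaging the 3 reduced the log2 difference from -1.84 to -0.65.

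Unc13d, Munc13-4, which primes granules for fusion and binds Rab27a, read 444, 354, 703 and 464 against 623, 433, 496 and 549. The groups lay on top of each other and both straddled 500, so no fold is given. The log2 difference was -0.13 ± 0.24 (SE), and it turned to 0.41 on quantile normalization and to 0.01 with a floor of 500 or without Trib1 hi 2, so its direction is not settled.

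Mitf, the transcription factor that controls melanosome and lysosome genes in pigment cells, mast cells and osteoclasts, read 591, 462, 949 and 593 against 1332, 1462, 1724 and 1497. It was at least 2.28-fold lower (649 ± 209 and 1504 ± 163), and the highest hi-labelled array, again Trib1 hi 3, lay below the lowest of the others. A second Mitf probe set did not exceed 46.0 on any array, and the mean of both gave a log2 difference of -0.24 in place of -1.25. Gpnmb, a membrane glycoprotein of melanosomes and phagocytes and a known target of Mitf, read 22.5, 16.3, 411 and 139 against 1866, 1951, 1911 and 1845. All hi-labelled arrays lay under 500 and the others lay close together at 1893 ± 47.5, so the fold is at least 3.79. The log2 difference was -4.70, from -5.54 without Trib1 hi 3 to -4.06 without Trib1 hi 2, and -1.92 with a floor of 500. A further probe set listed for both Gpnmb and Wdr6 read 2415 ± 208 against 3576 ± 168 and was not used.

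Trib1 hi 3 stood at an edge of its group for 9 of the 10 genes. It was the lowest array of the group for 4 genes (Mreg, Rab38, Rab27a and Rab7), with group means of 4021 or more, and the highest for 5 (Gpnmb, Mitf, Myo5a, Lyst and Unc13d), with group means of 718 or less. Without it, the signs of all 10 log2 differences were as before, at 5.96 for Mreg, 2.57 for Rab38, 0.29 for Rab7, -0.31 for Unc13d, -0.49 for Rab27a, -1.45 for Mitf and Myo5a, -1.66 for Rab32 and -2.0 for Lyst. The part of this array's higher low-end signals in the values of Gpnmb was not tested; without the array that difference was larger, at -5.54.

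**Figure D2:**
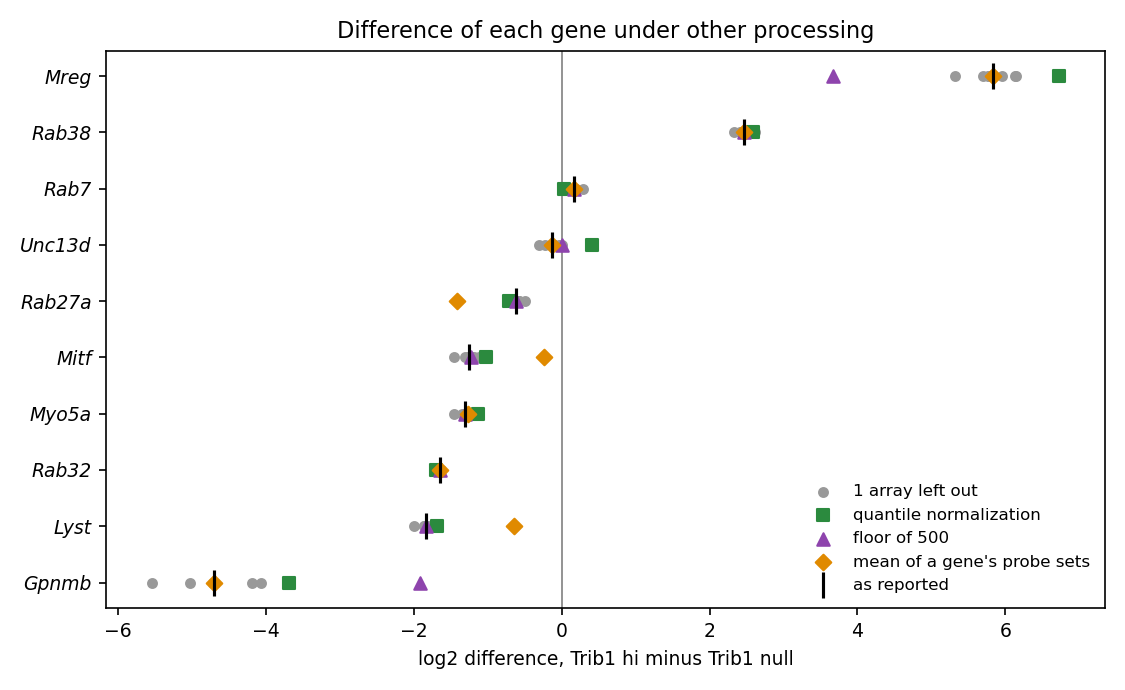
Log2 difference (Trib1 hi minus Trib1 null) of each gene as reported (black bar) and with 1 array left out, quantile normalization, a floor of 500 or the mean of a gene's probe sets. Mreg and Rab38 stay to the right of 0 in all of these and Rab32, Rab27a, Gpnmb, Mitf, Myo5a and Lyst to the left, while Unc13d falls on both sides; Mreg and Gpnmb shrink to 3.67 and -1.92 with the floor.

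The other genes of this machinery were listed by function, with no member of the 10 among them. Earlier results of these data were known when the list was made. Its shares beside those of all genes are therefore a description and no independent test. Of 104 listed genes, 92 had a probe set and 78 passed the filter, and limma, a linear model fitted across all 12250 genes with Benjamini-Hochberg adjustment, called 9 higher and 25 lower in the hi-labelled arrays at an adjusted p under 0.05. That is 11.5% higher and 32.1% lower, beside 11.1% and 19.7% of all genes tested, the shares against which the counts of each role below are to be read. The list had a median log2 difference of -0.39, against 0.04. Among the 44 list genes with a mean intensity over 500, 20.5% were higher and 38.6% lower, beside 26.3% and 33.2% of all such genes. The median log2 difference of those 44 was -0.14, against -0.03 for all such genes, so the gap in medians was smaller among brighter genes. Without Trib1 hi 3 the list had 11 higher and 40 lower, beside 17.2% and 30.8% of all genes, and after quantile normalization 16 higher and 37 lower, where all genes divided into 3354 and 3346 in place of 1363 and 2409.

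**Figure D3:**
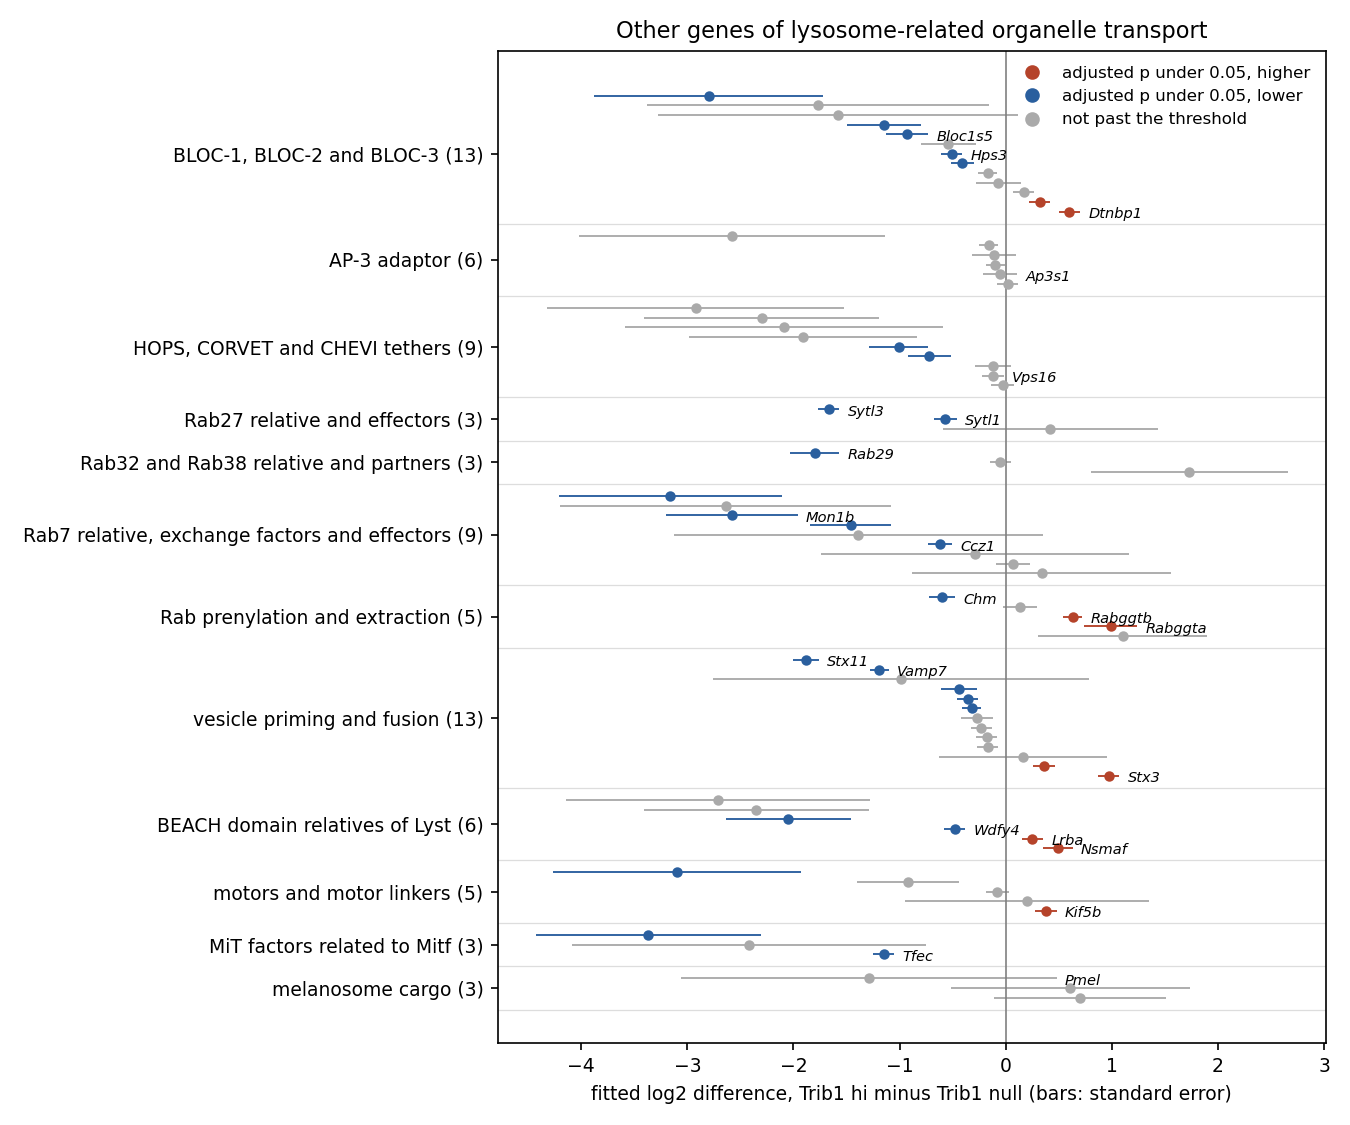
Fitted log2 difference (Trib1 hi minus Trib1 null) of the 78 tested genes of the list by role, with bars for the standard error; red and blue points passed the threshold and grey points did not. Sytl3, Stx11, Rab29, Vamp7 and Tfec lie at -1.67, -1.88, -1.80, -1.19 and -1.15, and Stx3 and Rabggtb at 0.97 and 0.63. The widest bars belong to genes whose signals lay under 500 on all arrays of both groups.

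Of 3 tested relatives and partners of Rab27a, 2 fell. Sytl3, a synaptotagmin-like protein that binds Rab27 on granules, read 952, 802, 994 and 916 on the hi-labelled arrays and 2756, 2970.3, 2992 and 2945 on the null-labelled arrays. The groups were far apart, 3.18-fold by means of 916 ± 82.4 and 2916 ± 108 (limma adjusted p = 1.02e-14). Sytl1, of the same family, fell 1.48-fold from 1724 ± 72.5 to 1164 ± 129 (limma adjusted p = 9.20e-05), a log2 difference of -0.57 that is within the size seen in the control dap. The relative Rab27b and the effectors Mlph, Myrip, Sytl2, Sytl4 and Exph5 did not pass the filter.

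Of the 3 tested partners and relatives of Rab32 and Rab38, 1 fell. Rab29, the third GTPase of that subfamily, read 219, 248, 603 and 396 against 1252, 1136, 1184 and 1154, at least 2.25-fold lower (limma adjusted p = 9.24e-08). It lay below on 4 of 4 arrays, as Rab32 did. Ankrd27, an effector of Rab32 and Rab38, read 1491 ± 73.1 against 1545 ± 24 and did not pass (limma adjusted p = 0.789). The kinase Lrrk2, which binds these GTPases, lay under 500 on all arrays and did not pass (limma adjusted p = 0.179), but passed without Trib1 hi 3 (0.00408) and after quantile normalization (2.69e-06, 2.69e-06 to 1 across alternatives).

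Of 13 tested genes of vesicle priming and fusion, 2 rose and 5 fell (15.4% and 38.5%, beside 11.1% and 19.7% of all genes). Stx11, a syntaxin of granule release that is mutated in familial haemophagocytic lymphohistiocytosis, read 700.2, 701, 971 and 942 against 2808, 3181, 2891 and 3258. It fell 3.66-fold, from 3035 ± 219 to 829 ± 148 (limma adjusted p = 1.11e-14). Vamp7, a SNARE of lysosome and melanosome fusion, fell 2.28-fold from 3535 ± 135 to 1549 ± 36.2 (limma adjusted p = 1.81e-12). Stx3, a syntaxin of granule and apical fusion, rose 1.96-fold from 1133 ± 47.5 to 2218 ± 93.4 (limma adjusted p = 2.08e-09), a call lost on averaging its probe sets (adjusted p = 0.670, 1.32e-21 to 0.670 across alternatives). The other call upwards was Vti1b, which also ended on averaging its probe sets (0.756, 8.12e-06 to 0.756 across alternatives). Stx4a and Vamp8 fell 1.25-fold and 1.28-fold (limma adjusted p = 0.00655 and 0.00713), at log2 differences of -0.32 and -0.36, smaller than in dap. The call for Stxbp3 (limma adjusted p = 0.0425) ended without Trib1 hi 2 (0.146), Trib1 hi 4 (0.216), Trib1 null 1 (0.127), Trib1 null 3 (0.0507) or Trib1 null 4 (0.0516), and 0.0109 to 0.239 across alternatives.

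**Figure D4:**
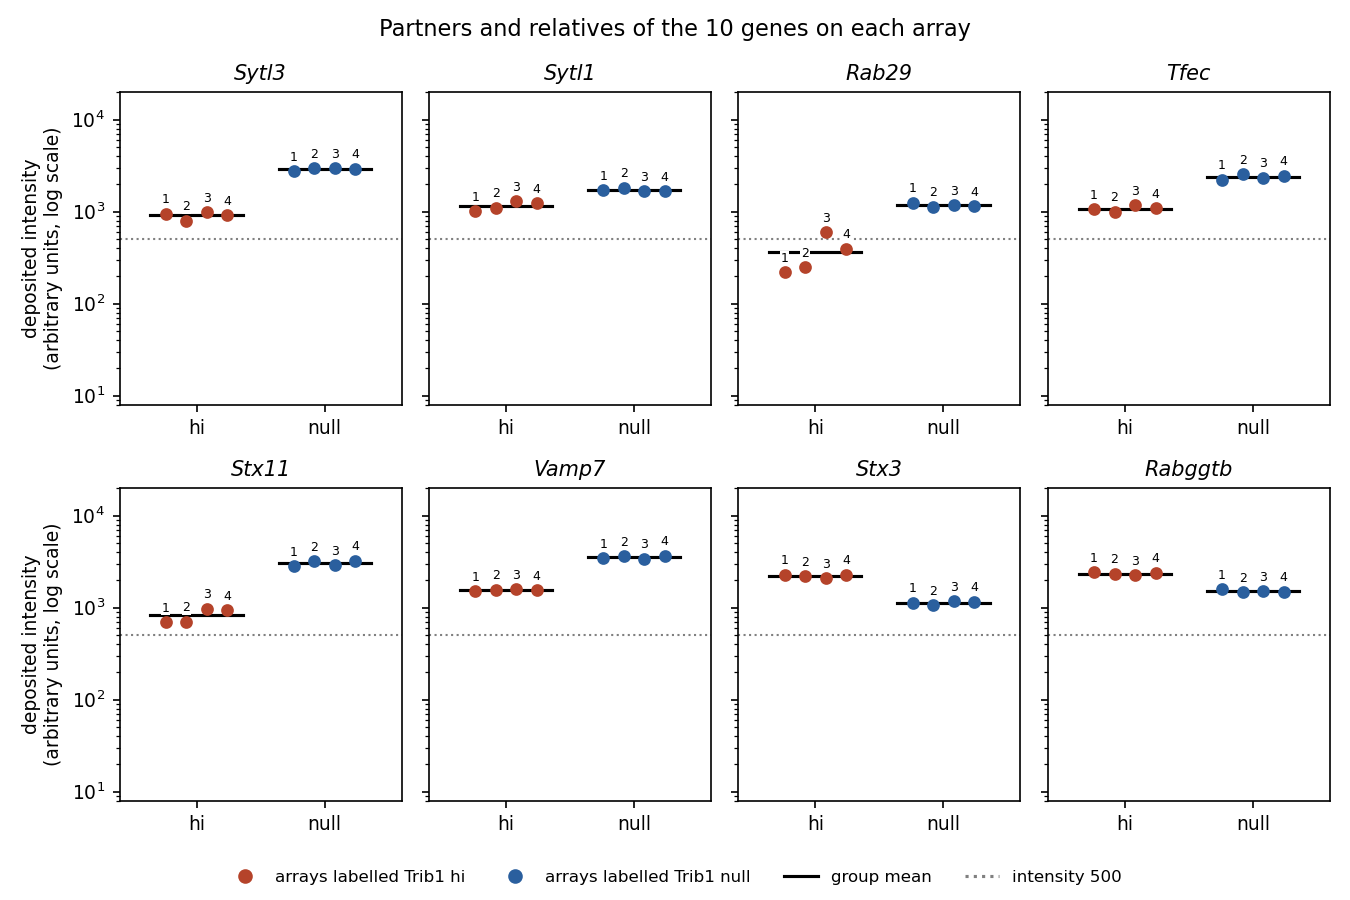
Deposited intensity (arbitrary units, log axis) of 8 listed partners and relatives on each array, with hi-labelled arrays in red and null-labelled arrays in blue, the array number above each point, a bar at the group mean and a dotted line at 500. Sytl3, Sytl1, Rab29, Tfec, Stx11 and Vamp7 lie lower on all 4 hi-labelled arrays, and Stx3 and Rabggtb lie higher.

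Of the 3 relatives of Mitf, 2 were called lower. Tfec, a myeloid member of the same MiT family of transcription factors, fell 2.22-fold, from 2394 ± 148 to 1079.9 ± 70.8 (limma adjusted p = 7.13e-11), on 4 of 4 arrays. Tfe3 was called lower at signals under 500 in both groups (limma adjusted p = 0.0138), a call lost without Trib1 null 1 (0.0557) or Trib1 null 4 (0.0508) and with a floor of 500 (1, 5.58e-05 to 1 across alternatives). Tfeb did not pass (limma adjusted p = 0.340) except after quantile normalization (0.00115) and without Trib1 hi 3 (0.00330, 0.00115 to 1 across alternatives).

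Prenylation, which attaches Rab proteins to membranes, gave 2 increases and 1 decrease among 5 tested genes. Rabggtb, the catalytic subunit of Rab geranylgeranyl transferase, rose 1.55-fold from 1516 ± 46.3 to 2353 ± 75.6 (limma adjusted p = 2.06e-06). Its partner subunit Rabggta read 668 ± 159.5 against 334 ± 68.4 (limma adjusted p = 0.00207), a call lost with a floor of 500 (0.163, 2.29e-09 to 0.163 across alternatives). Chm, the escort protein that presents Rabs to the enzyme, fell 1.51-fold to 975 ± 151 from 1468 ± 65.7 (limma adjusted p = 0.000209), at a log2 difference of -0.60, within the size seen in dap.

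Complexes that build the organelles divided. Of 13 tested subunits of the BLOC complexes, which sort cargo to lysosome-related organelles, 2 rose and 5 fell (15.4% and 38.5%, beside 11.1% and 19.7% of all genes), with 2 of the 5 decreases lost with a floor of 500. Dtnbp1, dysbindin, rose 1.53-fold from 2082 ± 109 to 3177 ± 348 (limma adjusted p = 6.86e-06), and Bloc1s2 rose 1.25-fold. Bloc1s5, also known as muted, fell at least 1.66-fold to 578 ± 240.0 from 1039.7 ± 92.7 (limma adjusted p = 0.000338). Hps3 fell 1.43-fold (1298 ± 36.3 against 1854 ± 98.9, limma adjusted p = 0.000136), a call lost on averaging its probe sets (0.784, 1.06e-06 to 0.784 across alternatives), and Bloc1s1 fell 1.33-fold. The log2 differences of Hps3 and Bloc1s1, -0.51 and -0.41, were no larger than the size seen in dap. The calls of Bloc1s3 and Hps1, under 500 in both groups on some or all arrays, ended with a floor of 500 (0.0885 and 1). The call of Bloc1s3 (limma adjusted p = 0.00984, 0.00235 to 0.0885 across alternatives) also ended without Trib1 hi 2 (0.0516). The call of Hps1 (limma adjusted p = 0.0479, 0.000539 to 1 across alternatives) also ended without any array other than Trib1 hi 3 (0.0837 to 0.145).

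None (0) of 6 genes, 5 subunits of the AP-3 adaptor, which works beside the BLOC complexes, and the lipid kinase Pi4k2a, listed with them as a partner, was called at an adjusted p under 0.05 (limma). No gene of the 6 had an unadjusted p under 0.05 either (0 of 6), whereas 4 (Ap3b1, Ap3m1, Ap3s1 and Pi4k2a) passed after quantile normalization and Ap3s2 passed without Trib1 hi 3 (adjusted p = 0.00142). The brightest, Ap3s1, read 21669 ± 3340.4 against 22287 ± 1734 (limma adjusted p = 0.881), with 0.0251 after quantile normalization and 0.0251 to 1 across alternatives. Of 9 tethering genes, the CORVET subunit Tgfbrap1 (at least 1.22-fold) and Vipas39 (at least 1.44-fold, limma adjusted p = 0.00494) fell, with groups that overlapped. The Tgfbrap1 call (limma adjusted p = 0.00599) ended with a floor of 500 (0.155, 0.000936 to 0.155 across alternatives) and on averaging its probe sets (0.0908). Vps16, the brightest tether by the mean over all arrays, read 1769 ± 72.6 against 1924 ± 49.4 (limma adjusted p = 0.416, 0.0487 with a floor of 500, 0.0487 to 0.656 across alternatives).

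Around Rab7, 4 of 9 tested genes fell, beside 19.7% of all genes. Ccz1, part of its exchange factor, fell 1.51-fold from 5178 ± 459 to 3423 ± 685 (limma adjusted p = 4.87e-05), at a log2 difference of -0.62, also within the size seen in dap. Mon1b, another part of it, fell at least 1.18-fold (168 ± 169 against 592 ± 69.7, limma adjusted p = 0.0013), a call lost with a floor of 500 (0.0840) and on averaging its probe sets (0.126, 1.30e-05 to 0.126 across alternatives). The call of Mon1a (limma adjusted p = 0.0194) ended without any null-labelled array (0.0541 to 0.0752) and with a floor of 500 (1, 7.96e-05 to 1 across alternatives). The call of the effector Plekhm1 (limma adjusted p = 0.00292) ended with a floor of 500 (0.0558) and on averaging its probe sets (0.587, 8.95e-05 to 0.587 across alternatives).

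Among 6 tested BEACH domain relatives of Lyst, 2 rose and 2 fell. Wdfy4, a BEACH protein of blood cells, fell 1.39-fold from 2069.9 ± 68.5 to 1488 ± 159 (limma adjusted p = 0.000322). Its log2 difference, -0.48, was smaller than in dap. Nsmaf, an adaptor of the tumour necrosis factor receptor, rose 1.40-fold to 1012 ± 83.8 from 723 ± 84.2 (limma adjusted p = 0.00869), a call lost without Trib1 null 2 (0.0502, 5.17e-06 to 0.0502 across alternatives). Lrba rose 1.19-fold (1995 ± 95.4 against 1679 ± 46.3, limma adjusted p = 0.0483), a call lost without any array other than Trib1 hi 3 (0.0888 to 0.173) and on averaging its probe sets (0.938, 0.000109 to 0.938 across alternatives). Nbeal2, the relative needed for platelet granules, was called lower (limma adjusted p = 0.00663), which ended with a floor of 500 (0.690, 0.000192 to 0.690 across alternatives).

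Among 5 tested motors and linkers, Kif5b, a kinesin, rose 1.30-fold from 3654 ± 227 to 4768 ± 545 (limma adjusted p = 0.00251), a call lost on averaging its probe sets (0.114, 9.59e-06 to 0.114 across alternatives). Dctn1, a dynactin subunit that binds the Mreg transport complex in pigment cells, was called lower under 500 in both groups (limma adjusted p = 0.0425), which ended without any array other than Trib1 hi 3 (0.0800 to 0.151) and with a floor of 500 (1, 0.000156 to 1 across alternatives). The motors Myo5b, Myo5c and Myo7a did not pass the filter.

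The pigment cargo of melanosomes was dim. Pmel, the brightest of that group, read 10.7, 10.4, 269.8 and 8.71 against 232, 6.64, 101 and 83.1, and its groups overlapped (limma adjusted p = 0.681). All 6 melanocyte markers (Tyr, Tyrp1, Dct, Pmel, Mlana and Slc45a2) lay under 500 on all 8 arrays, with a sum of 25.8 to 525 in the hi-labelled arrays and 23.6 to 266 in the others. Likewise 6 of 6 osteoclast markers and 8 of 8 cytotoxic lymphocyte markers lay under 500 on all arrays, with highest values of 64.2 and 394. Of 10 measured blood and myeloid progenitor markers, 5 lay over 500 on all arrays, and their summed level was 37588 to 51268 and 33786 to 39781. Ptprc, the leukocyte antigen CD45, read 9626 to 14049 and 11165 to 14102, with overlap. Some genes of immature granulocytic cells were higher in the hi-labelled arrays without overlap. Mpo, a granule enzyme, read 5201 ± 755 against 2.92 ± 0.791, and the progenitor antigen Cd34 read 3429 ± 431 against 25.1 ± 40. Elane, neutrophil elastase, read 4452 ± 653 against 802 ± 170.2. The transcription factor Cebpa was also higher, at 7291 ± 1285 against 4002 ± 109. Kit read 379.9 ± 208 against 77.3 ± 41.2, but only Trib1 hi 3 (681) lay over 500, so no direction is read from it. Lower without overlap were Itgam, an integrin of mature myeloid cells, at 1660.0 ± 88.9 against 5122 ± 325, and the transcription factor Spi1, at 567 ± 217 against 969.9 ± 112. Il3ra, of the same list, read 269 ± 230.2 against 547 ± 17.4 with overlap. It was called lower (limma adjusted p = 0.00967), with only Trib1 hi 3 over 500 in its group. Csf2rb, at 11497 ± 2117 against 12751 ± 1218, overlapped and was not called (limma adjusted p = 0.438). Of 9 macrophage markers 7 stayed under 500, and the other 2 differed in opposite directions without overlap: Adgre1 was higher at 5964 ± 768 against 4111 ± 263, and Cd68 lower at 2760.2 ± 313 against 4207 ± 181. The log2 difference of Cd68, -0.61, was within the size seen in dap. The sum of the macrophage list, 7362 to 9496 and 7806 to 8709, overlapped. Of 8 mast cell markers 6 stayed under 500 on all arrays, whereas the summed level, mostly Cpa3, was 18676 to 26940.4 against 1691 to 1859.5. The part of these markers in the differences was not tested, and in bulk RNA fewer cells of a type and less RNA per cell cannot be told apart.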

How the data were processed

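Total RNA of 8 mouse AML samples was hybridised to Affymetrix arrays, 4 labelled Trib1 hi and 4 Trib1 null, grouped by their titles. The authors deposited 1 linear intensity per probe set and array, made with MAS5 per the submitters' processing notes; a version, parameters, a genome build or detection calls were not given in the sources used here. Of 45141 probe sets, 28898 had 1 gene symbol in the platform annotation and 551 several. Each of 17097 genes was read from its probe set with the highest mean, as log2(intensity + 2.71), the added value being the 25th percentile of the table. The added value shrinks changes at low signal, but it is small, and genes under 500 in both groups could still differ widely. Dctn1, for example, differed by -3.10, and by -1.58 with a pseudocount of 64. The 12250 genes averaging over 3.01 on this log2 scale, the 40th percentile of probe sets, were kept. limma 3.58.1 in R 4.3.3 (lmFit, eBayes with trend) compared the groups, two-sided, with Benjamini-Hochberg adjustment over all genes kept. The 10 genes were chosen from this contrast and have no p. Folds are ratios of means after signals under 500 were set to 500, a limit chosen after the data were seen. The number of arrays limits the precision.

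The 10 genes, the other lists and the motifs were chosen with earlier results of these data known. Of each role in the list of other genes, up to 3 called genes with the largest differences and no overlap were named, or else the brightest. Markers were named as the brightest of a list or where a statement turns on them. Of the blood and myeloid progenitor list, all measured genes were named. Ankrd27, Lrrk2, Tfeb, Ap3s2, Ap3b1, Ap3m1, Pi4k2a, Bloc1s1, Bloc1s2, Bloc1s3, Hps1, Tgfbrap1, Vipas39, Mon1a, Plekhm1, Stx4a, Stxbp3, Vti1b, Vamp8, Nbeal2, Dctn1, Tfe3, the motors Myo5b, Myo5c and Myo7a and the Rab27 genes under the filter were named after their values were seen. Alternatives were pseudocounts of 16 and 64, no filter, quantile normalization, equal 90th percentiles, a floor of 500, the mean of a gene's probe sets, the replicate number as a block, each array left out and, added after the data were seen, only genes with a mean intensity over 500. The fit was tested on simulated data. Lists of B cell, megakaryocyte and fibroblast markers were also read: 2 of 2, 4 of 5 and 5 of 5 measured genes lay under 500 on all arrays.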

Additional observations from a re-analysis of the deposited data

Results flagged for a closer look

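In 64 groups of 4 arrays, the gap from an array to the nearest of the others was divided by the range of the group. Gap and range were taken on the log2 scale used for the fit, not on the intensities printed below. An array was singled out where this gap share passed Dixon's 95% critical value for 4 samples. This happened in 6 groups, all labelled Trib1 hi, and chance gives about 1 in 20. Trib1 hi 3 was the array in 5 of the 6. It read 4883 for Mreg beside 6695 to 7121 (gap share 0.837), 5707 for Rab7 beside 7821 to 8149 (0.885), 2663 for Dtnbp1 beside 3295 to 3437 (0.834) and 16672 for Ap3s1 beside 23068 to 23663 (0.927). For Pmel it stood above the others, at 269.8 beside 8.71 to 10.7 (0.950). The other array was Trib1 hi 4, at 1878 for Vps16 beside 1732 to 1735 (0.978).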

How the results depend on the processing

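The log2 differences of the 10 genes kept their sign in each alternative, except that Unc13d turned with quantile normalization (0.41), a floor of 500 (0.01) and without Trib1 hi 2 (0.01). Over all genes, calls higher in the arrays labelled Trib1 hi numbered 1363 and were 3354 with quantile normalization, 711 with the mean of a gene's probe sets and 1153 to 2103 with 1 array left out, the highest without Trib1 hi 3. Calls lower numbered 2409 and were 1595 with a floor of 500, 1285 with the mean of probe sets and 1964 to 3768 with 1 array left out, again highest without Trib1 hi 3. In the list of other genes, 9 higher became 16, 5 and 7 to 11 with quantile normalization, the mean of probe sets and 1 array left out, and 25 lower became 16 with the mean of probe sets and 20 to 40 with 1 array left out. The causes were not tested. Of the 34 list calls, 17 were kept in all alternatives and 0 turned. The median over all genes tested was 0.04, and -0.32 without Trib1 hi 3. Calls higher were 36.1% of all calls and 50.1% after quantile normalization.

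Arrays with the same replicate number deviated from their group means with correlations of -0.51, 0.49, -0.29 and 0.37. The largest correlation, 0.65, was between Trib1 hi 3 and Trib1 null 1. Deviations from a group's own mean are tied to each other, so these values cannot show or exclude a pairing by number. With the replicate block, 1284 genes were higher and 2346 lower, and 8 and 23 of the list, where the calls of Lrba (adjusted p = 0.0881), Hps1 (0.0626) and Dctn1 (0.0618) were lost. Signals under 500 had no usable order between arrays, which limits Unc13d, Gpnmb and the dim group of Mreg.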
